A study of Homo sapiens with 8 samples.

Results

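Insulin and insulin-like growth factor (IGF) signalling is represented here by 8 genes: the receptors IGF1R and INSR, the receptor substrates IRS1 and IRS2, and the binding proteins IGFBP2, IGFBP3, IGFBP4 and IGFBP5. They were taken by name and are 8 of 19594 protein-coding genes analysed. Every acetylation peak inside one of them or within 10 kb of either end was collected. These came to 71 peaks with butyrate and 21 in control for H3K9ac, the acetylated lysine 9 of histone H3, and to 41 with butyrate and 95 in control for H4K16ac, the acetylated lysine 16 of histone H4. With butyrate, no promoter of the 8 gained an H3K9ac peak (9.28% of all genes did) or lost one (0.174%). Of the 8 gene bodies, 6 held more H3K9ac peaks than in control (44.7% of all genes did). The body of IGF1R held fewer H4K16ac peaks, as did those of 35.6% of all genes. In equal numbers of top peaks from both lists, 3 of the 8 gene bodies held more H3K9ac peaks with butyrate and 1 held fewer. The 1 with fewer was IGFBP3, where a butyrate peak counted as promoter covered the control peak. The share of all genes was not computed at this setting, so these counts cannot be set against the 44.7% of the full lists.

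IGF1 and IGF2 act mainly through IGF1R, and insulin mainly through INSR. Both are receptor tyrosine kinases that phosphorylate IRS1 and IRS2, the docking proteins that pass the signal to the phosphoinositide 3-kinase and MAP kinase pathways. IGF-binding proteins hold IGFs outside the cell and set how much of them reaches the receptor; in the ovarian follicle, IGFs act together with follicle-stimulating hormone on granulosa cells, and IGFBP4 is known as an inhibitor of that action. H3K9ac marks the promoters of active genes and active enhancers, and H4K16ac is a mark of open chromatin.

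The cells were KGN, an established line from 1 human ovarian granulosa cell tumour, so the values describe that line. The butyrate group was held for 6 h in 1 mM butyrate, a microbial fatty acid known to block class I and class II histone deacetylases, and the control group had none. Chromatin immunoprecipitation and sequencing (ChIP-seq) gave 1 library per mark and condition, with no replicate: each comparison sets 1 library against 1 other, and no p-value is given. The labels also list nonspecific immunoglobulin (IgG) and input samples for each condition; the inputs were not analysed here.

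The depth implied by the background of each list was 29.4 M reads for H3K9ac with butyrate and 24.3 M in control, and 23.9 M for H4K16ac with butyrate and 17.4 M in control. The lists differed in length: H3K9ac had 79356 peaks with butyrate and 22215 in control, and H4K16ac had 33752 with butyrate and 73586 in control. Of these H4K16ac peaks, 381 with butyrate and 29141 in control had a q of 0.05 or less, whereas every H3K9ac peak did. The IgG lists held 2 peaks with butyrate and 5 in control, and 0 of them lay at the 8 genes. Of 10 granulosa markers, 6 had an H3K9ac promoter peak with butyrate (FOXL2, CYP11A1, INHA, AMHR2, INHBA and FST) and 3 in control (FOXL2, CYP11A1 and INHA). The rest of these 10, CYP19A1 among them, had no H3K9ac promoter peak in either condition, and a missing peak is not a measured absence. The list named 11 granulosa markers, of which 10 were analysed. No marker of blood (4 genes), endothelium (3) or epithelium (3) had an H3K9ac promoter peak. Of the oocyte markers, 2 of 4 had one in both conditions, and 1 of 3 theca markers had one with butyrate and 0 in control. H4K16ac promoter peaks did not single out the granulosa markers: 2 of 10 had one with butyrate (CYP19A1 and AMHR2) and 3 in control (CYP11A1, INHA and AMHR2). Of the 3 endothelial markers, 2 had one with butyrate (PECAM1 and CDH5) and 0 in control. The blood marker SPI1 had one in control, the oocyte marker ZP3 in both, and no theca or epithelial marker had one.

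The starts of the 8 genes differ in CpG content. RefSeq promoter windows of GRCh38.p14 were found for all 8 genes, and the 250 bases before each start were searched. The 6 genes with an H3K9ac promoter peak had 24 to 48 CpG dinucleotides in that window, against a median of 11 over 35116 windows of 27305 genes. IGFBP5 had 8. IGFBP2 had 7, 22 and 4 before its 3 annotated starts. The windows of IGF1R, IRS1 and IGFBP4 are printed as starts that carried H3K9ac in both conditions, and those of IGFBP5 and the first pair of IGFBP2 starts as starts that carried none. Sequences run 5′ to 3′ towards the start, and capitals mark the motifs found on either strand.
IGF1R: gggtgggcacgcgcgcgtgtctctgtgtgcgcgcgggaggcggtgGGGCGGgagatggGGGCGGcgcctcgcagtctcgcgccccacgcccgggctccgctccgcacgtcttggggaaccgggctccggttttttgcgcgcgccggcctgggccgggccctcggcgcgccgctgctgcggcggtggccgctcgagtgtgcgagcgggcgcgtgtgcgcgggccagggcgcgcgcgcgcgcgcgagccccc
IRS1: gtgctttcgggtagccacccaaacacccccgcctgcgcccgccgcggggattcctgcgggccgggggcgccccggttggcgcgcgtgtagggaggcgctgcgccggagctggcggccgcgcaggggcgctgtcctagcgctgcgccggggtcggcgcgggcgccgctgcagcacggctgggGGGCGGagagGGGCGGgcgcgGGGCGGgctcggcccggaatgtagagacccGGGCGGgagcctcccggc
IGFBP4: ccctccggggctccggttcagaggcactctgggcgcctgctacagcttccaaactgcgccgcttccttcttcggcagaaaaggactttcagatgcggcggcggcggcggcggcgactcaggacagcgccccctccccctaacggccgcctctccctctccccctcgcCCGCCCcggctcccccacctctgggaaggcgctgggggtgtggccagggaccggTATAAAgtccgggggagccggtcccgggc
IGFBP5: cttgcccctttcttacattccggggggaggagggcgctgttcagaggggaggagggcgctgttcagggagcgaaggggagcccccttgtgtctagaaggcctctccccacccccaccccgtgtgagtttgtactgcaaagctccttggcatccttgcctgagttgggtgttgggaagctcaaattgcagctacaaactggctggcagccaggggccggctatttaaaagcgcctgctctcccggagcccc
IGFBP2: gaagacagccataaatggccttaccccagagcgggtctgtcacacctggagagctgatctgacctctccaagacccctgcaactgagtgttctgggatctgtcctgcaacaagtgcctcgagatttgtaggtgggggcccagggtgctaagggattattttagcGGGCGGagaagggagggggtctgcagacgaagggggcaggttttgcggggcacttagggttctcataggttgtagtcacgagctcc
IGFBP2, second start: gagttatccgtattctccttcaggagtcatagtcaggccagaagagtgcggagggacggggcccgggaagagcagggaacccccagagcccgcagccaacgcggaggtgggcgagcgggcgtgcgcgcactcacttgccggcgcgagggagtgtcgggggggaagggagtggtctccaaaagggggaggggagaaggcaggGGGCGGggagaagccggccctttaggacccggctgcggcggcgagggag

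On GRCh38.p14 these windows are chr15:98648289-98648538 (plus strand) for IGF1R, chr2:226799821-226800070 (minus) for IRS1, chr17:40443200-40443449 (plus) for IGFBP4, chr2:216695550-216695799 (minus) for IGFBP5, and chr2:216632578-216632827 and chr2:216633170-216633419 (plus) for IGFBP2. On both strands, the letters searched were the GC box GGGCGG (in 42.6% of all windows), the CCAAT box (32%), the TATA box TATAAA (10.7%), the forkhead letters TGTTTAC (2.98%) and, as a second form, TGTTTTG (4.3%), the NR5A site AAGGTCA (3.44%), the AP-1 site TGACTCA (4.2%) and the E-box CACGTG (6.34%). GC boxes numbered 5 in IRS2, 4 each in INSR and IRS1, 2 each in IGF1R and IGFBP3, and 1 in IGFBP4, and some of those in INSR and IRS2 share bases with the next. IGFBP5 had 0, and the 3 IGFBP2 windows had 1, 1 and 0. TATAAA was found in IGFBP4 alone, starting 29 bases before the start, and TGTTTTG in IRS2 alone, 40 bases before it. CCAAT was found in IRS2, with 2 copies, and before the third IGFBP2 start. The other letters were in none of the windows of the 8 genes. Over the 13793 analysed genes with a window at their outer start, 87% of the 4313 genes with 24 or more CpG had an H3K9ac promoter peak with butyrate and 80.5% in control, against 28.9% with butyrate and 18.1% in control of the 4033 genes with 8 or fewer. These CpG classes were set after the members' values were seen. The second IGFBP2 window, with 22 CpG, falls in the class between, in which 78.9% of 5447 genes had a peak with butyrate and 72.2% in control.

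The first comparison asks whether butyrate changed acetylation at the starts of the 8 genes. A promoter peak is one that reaches within 1 kb of a start. H3K9ac promoter peaks were present at IGF1R, INSR, IRS1, IRS2, IGFBP3 and IGFBP4 with butyrate and at the same 6 genes in control. IGFBP2 and IGFBP5 had none in either condition. Thus 0 of 8 gained a promoter peak, against 9.28% of all 19594 genes, and 0 of 8 lost one, against 0.174%. These shares come from lists of unequal length: in equal numbers of top peaks gains numbered 637 and losses 520, and with a fold of at least 5 there were 1631 gains and 1278 losses. Genes with a promoter peak in both conditions made up 55.9% of all genes, and a promoter peak was present at 65.2% with butyrate and at 56.1% in control. Among genes marked in control, 0.309% were no longer marked with butyrate, against 0 of 6 here; among genes unmarked in control, 21.1% gained a peak, against 0 of 2.

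The peaks at the 6 marked starts were fewer and wider with butyrate: 7 peaks with butyrate and 11 in control. At IGF1R, INSR and IGFBP4, 1 butyrate peak covered the place of a pair of control peaks. At IGF1R the butyrate peak ran from position -1541 to 2710 relative to the start (chr15:98646998-98651249), against control peaks of 1044 and 1725 bp on either side of it. Promoter peaks covered 4252 bp with butyrate and 2769 bp in control at IGF1R, and 2026 bp with butyrate and 1020 bp in control at INSR. For the substrates the covered lengths were 1097 bp with butyrate and 578 bp in control at IRS1, and 4552 bp with butyrate and 3817 bp in control at IRS2. For the binding proteins they were 3185 bp with butyrate and 1871 bp in control at IGFBP3, and 3017 bp with butyrate and 1511 bp in control at IGFBP4. The length was greater with butyrate at all 6 genes, by 1.19 to 2 times; the median ratio over the 10952 genes with a promoter peak in both was 1.39.

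The height of the marked promoters showed no common direction. Height is given as the fragments piled up at the promoter summit with the highest −log10 p, which need not be the tallest, recovered from the authors' fold (summit pileup over local background) and p values and scaled to 10 M reads; ratios carry exact 95% intervals that cover counting error only. IGF1R had 12.9 fragments per 10 M reads with butyrate (38 fragments) and 12.8 in control (31 fragments), a ratio of 1.01 (0.614 to 1.68). INSR had 10.2 with butyrate (30 fragments) and 7 in control (17 fragments), a ratio of 1.46 (0.779 to 2.82). The 2 INSR summits were not at the same place: relative to the start, the butyrate summit lay at -416 bp and the control summit at 419 bp. The other control promoter peak of INSR had its summit at -368 bp, near the butyrate one. It had 4.94 fragments per 10 M reads (12 fragments), and no ratio was computed for that pair.

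IRS1 showed the largest of the 6 ratios taken in this way. Its summit had 10.9 fragments per 10 M reads with butyrate (32 fragments) and 5.76 in control (14 fragments), a ratio of 1.89 (0.98 to 3.83), with the butyrate summit 59 bp and the control summit 83 bp downstream of the start. The butyrate peak at IRS1 (chr2:226799169-226800265) also covered the start of RHBDD1, a gene on the opposite strand whose start lies 339 bp away, so the signal cannot be assigned to either gene. IRS2 had 11.6 fragments per 10 M reads with butyrate (34 fragments) and 14.8 in control (36 fragments), a ratio of 0.781 (0.474 to 1.28). These IRS2 summits lie in different peaks, and the butyrate one is not the tallest. In the upstream peak, which RefSeq places over LOC124903211, the heights were 14.6 with butyrate (43 fragments, the tallest) and 14.8 in control. Its fold was 4.13 with butyrate and 8.26 in control, over a local background of 3.54 times the genome background with butyrate and 1.66 times in control. In the peak over the first exon the heights were 11.6 with butyrate and 10.7 in control, with folds of 8.38 and 7.69.

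IGFBP3, the main carrier of IGFs in the circulation, had 9.86 fragments per 10 M reads with butyrate (29 fragments) and 12.3 in control (30 fragments), a ratio of 0.799 (0.463 to 1.38). IGFBP4 had 10.2 with butyrate (30 fragments) and 8.64 in control (21 fragments), a ratio of 1.18 (0.654 to 2.17). All 6 intervals include 1, so none of these ratios departed from 1 beyond counting error. At INSR and IRS2 the ratio sets summits at different places against each other, so it does not measure a change at the same place. Over the 10952 genes with both, the median ratio was 0.893 and the 5th and 95th percentiles were 0.594 and 1.47, which leaves IRS1 above that range and the other 5 within it. With peaks limited to a fold of at least 5, a setting at which the control IRS1 peak (fold 4.27) drops out, IRS1 would count as gained.

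**Figure D1:**
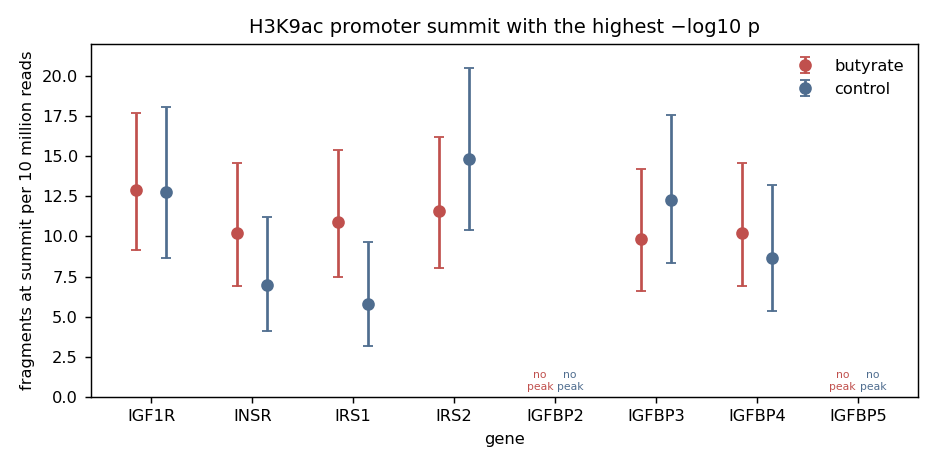
Height of the H3K9ac promoter summit with the highest −log10 p for each of the 8 genes, in fragments per 10 M reads, with butyrate (red, left) and in control (blue, right), 1 library each; bars are exact 95% Poisson intervals for counting error. The butyrate and control bars overlap at all 6 marked genes, and IGFBP2 and IGFBP5 had no promoter peak in either library.

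At the marked starts, butyrate promoter peaks extended past the control ones on both sides, except upstream of IRS2. There the control peak reached position -1467 relative to the start and the butyrate peak -1313. Further butyrate peaks stood in the bodies or flanks of these genes. The map of the gene starts shows the 7 shorter genes, of which IGFBP2 and IGFBP5 had no promoter peak in either library. At IRS2 the body downstream of the promoter carried a peak of 3884 bp with butyrate (chr13:109778836-109782719), against 1810 bp in control (chr13:109780368-109782177). That peak was wider but lower with butyrate, with 7.82 fragments per 10 M reads and a fold of 6.15, against 13.2 and 9.1 in control. At IGFBP3 the butyrate promoter peak ran to 2607 bp downstream of the start and covered both control peaks of the gene.

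**Figure D2:**
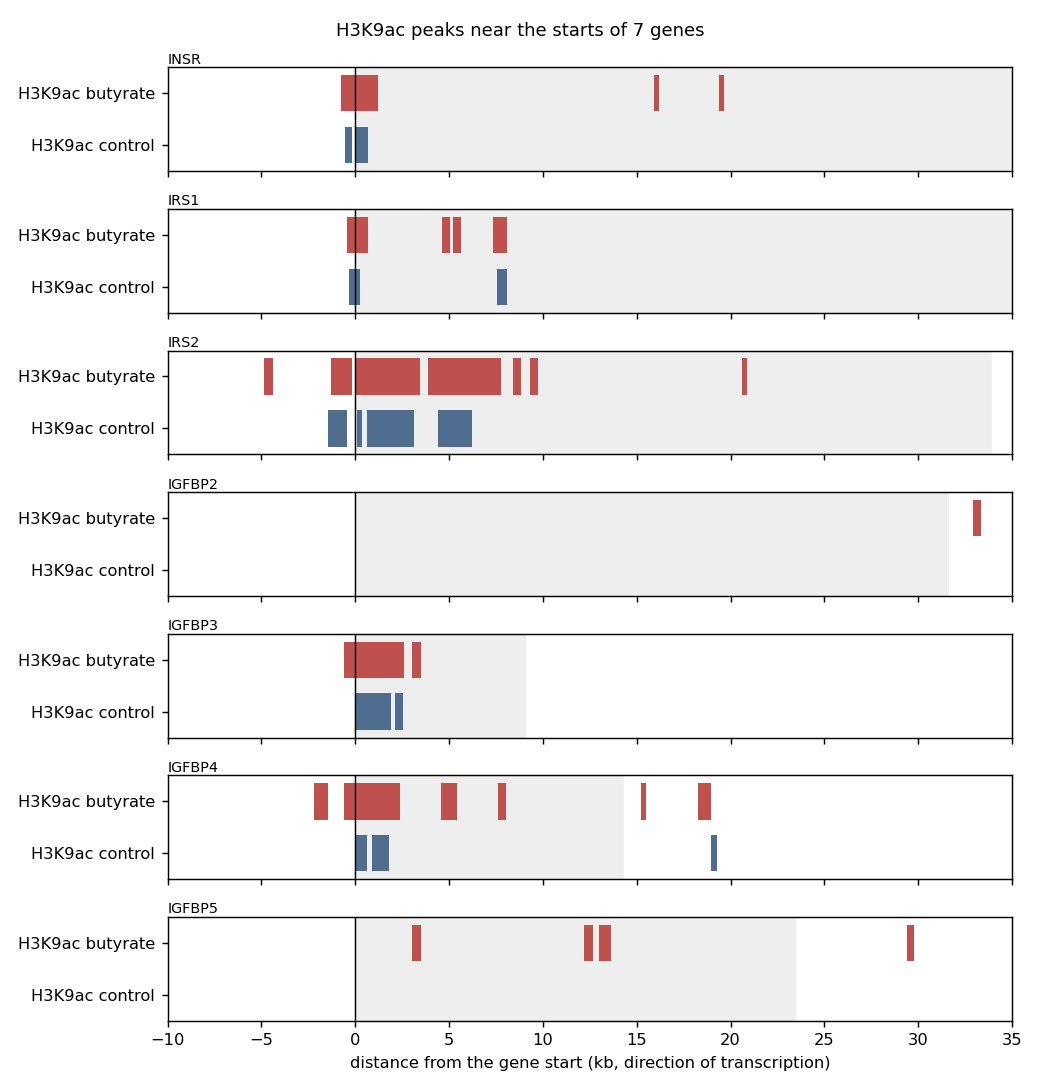
H3K9ac peaks of INSR, IRS1, IRS2 and the 4 binding protein genes by distance from the gene start in kb, along transcription; red bars are butyrate peaks (upper row of each gene), blue bars control peaks (lower row), and grey is the gene. IGFBP2 and IGFBP5 have no bar at the start in either row, and IGFBP5 has 3 butyrate bars inside the gene and 0 in control.

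The second comparison asks what happened inside the genes. Intragenic peaks overlap the gene without reaching a promoter window. The 8 genes held 55 intragenic H3K9ac peaks with butyrate and 9 in control. At least 1 was found in 7 of 8 genes with butyrate (48.8% of all genes) and in 5 of 8 in control (18.2%). Of the 8, 6 had more with butyrate, against 44.7% of all genes; 0 of 8 had fewer, against 3.04%. Peaks were called gained when they overlapped no control peak of the same mark. Gained H3K9ac peaks numbered 47 and lay in 7 of 8 genes, against 46.0% of all genes with at least 1, and no control peak was lost, against 4.86% of genes with at least 1 lost. IGF1R held 31 of the 47. The density was 8.1 intragenic peaks per 100 kb with butyrate and 1.33 in control over the 678.9 kb of the 8 genes, against 3.06 with butyrate and 0.438 in control over all genes.

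The gained peaks were small. Their median fold was 3.08 (2.47 to 4.76) and their median width 458 bp, whereas the 8 butyrate peaks that overlapped a control peak had a median fold of 5.29 and a width of 1553 bp. In equal numbers of top peaks from both lists, the 8 genes held 13 intragenic H3K9ac peaks with butyrate and 9 in control, 5 of the 13 gained. Then 3 genes (IGF1R, IRS2 and IGFBP4) had more with butyrate and 1 (IGFBP3) had fewer. The share of all genes with more or fewer was not computed at this setting. The 7 genes without IGF1R then held 5 with butyrate and 4 in control, against 19 with butyrate and 4 in control over the full lists. The control peak of IGFBP3 was not lost: the butyrate promoter peak, which is counted apart, covered it. At a fold of at least 5 the 8 genes held 4 with butyrate and 4 in control.

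**Figure D3:**
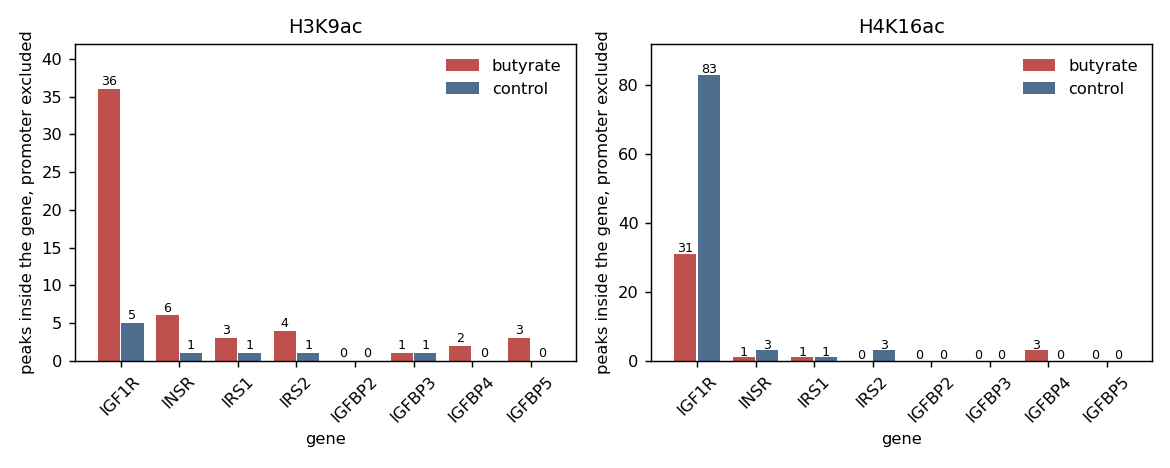
Number of intragenic peaks (promoter peaks excluded) per gene for H3K9ac (left panel) and H4K16ac (right panel), butyrate bars in red left of control bars in blue, 1 library each. IGF1R has 36 H3K9ac peaks with butyrate and 5 in control, and 31 H4K16ac peaks with butyrate and 83 in control.

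IGF1R (chr15:98648539-98964530, plus strand) is the longest of the 8 genes at 315992 bp and held most of the gained H3K9ac peaks. It held 36 intragenic H3K9ac peaks with butyrate and 5 in control, and 31 of the 36 were gained. Promoter and intragenic H3K9ac peaks together covered 8.83% of the gene with butyrate and 1.25% in control. By number of intragenic H3K9ac peaks it ranked 40 of 19594 genes with butyrate and 64 in control. Long genes have more room for peaks: by peaks per 100 kb, among the 3292 genes over 100 kb, it ranked 147 with butyrate (11.4 per 100 kb) and 128 in control (1.58 per 100 kb). Its place among long genes was thus similar in the 2 libraries.

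The H3K9ac peaks of IGF1R were not spread evenly. The stretch from 200 to 260 kb past the start, picked after its values were seen, held 23 peaks with butyrate and 3 in control, and peaks covered 32.9% of it with butyrate and 2.11% in control. The first 200 kb held 11 with butyrate and 2 in control, and the rest of the gene 2 with butyrate and 0 in control. By the authors' annotation, intron 2 held 19 of the peaks with butyrate and 5 of 5 in control; introns 3 and 5 held 5 and 6 with butyrate and 0 in control.

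The strongest 3 overlapped control peaks, but 2 of the 3 had their summit outside the control peak. The strongest butyrate peak (chr15:98852548-98855447, 2900 bp, intron 2) had a fold of 6.28 and 9.52 fragments per 10 M reads, against a fold of 3.67 and 8.64 fragments per 10 M reads in the control peak it covered; its summit lay 206.7 kb past the start and the control peak ended at 204.5 kb. The second (chr15:98850282-98852238, 1957 bp) had a fold of 4.97 and 9.52 fragments per 10 M reads, against 5.14 and 9.88 in the control peak it overlapped; its summit lay at 202.8 kb and the control peak began at 203.4 kb. The third, 79.3 kb past the start (chr15:98727885-98728677), had a fold of 4.12 and 9.18 fragments per 10 M reads, against 2.49 and 6.58 in the control peak that held its summit. In equal numbers of top peaks IGF1R held 8 intragenic H3K9ac peaks with butyrate and 5 in control. The local background at the IGF1R H3K9ac peaks was 1.33 times the genome background with butyrate and 1.99 times in control, against medians of 1.38 with butyrate and 1.57 in control over the whole lists; its part in the number of peaks was not tested.

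**Figure D4:**
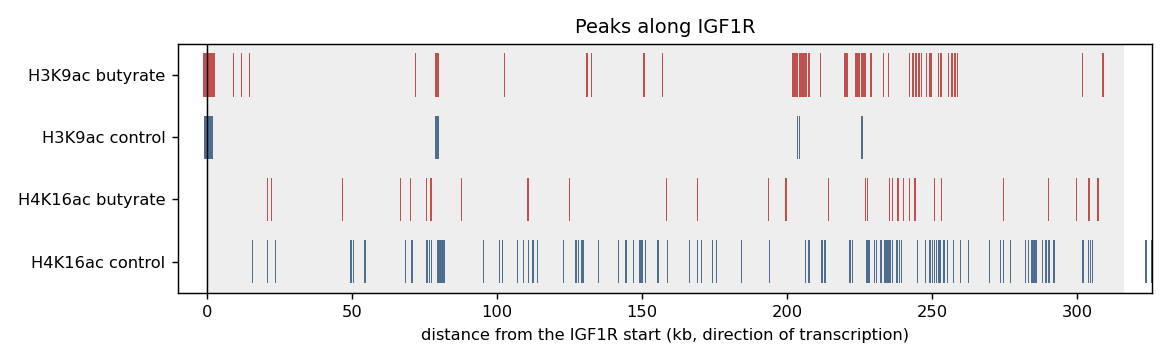
Peaks along IGF1R by distance from its start in kb, in 4 rows: H3K9ac with butyrate and in control, then H4K16ac with butyrate and in control; grey is the gene, and the narrowest bars are widened to stay visible. Butyrate H3K9ac peaks crowd between 200 and 260 kb, where control has 3, and control H4K16ac peaks run along most of the gene.

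INSR (chr19:7112265-7294414, minus strand), which binds insulin, held 6 intragenic H3K9ac peaks with butyrate and 1 in control, and 5 of the 6 were gained. The strongest butyrate peak lay 95.7 to 97.0 kb past the start in intron 2 (chr19:7197393-7198733), with 8.5 fragments per 10 M reads, against 7.82 in the control peak it overlapped. The gained ones had 3.06 to 4.42 fragments per 10 M reads, and the strongest of them (chr19:7250604-7250948) had a fold of 3.37. A further 3 butyrate peaks and 0 control peaks lay within 10 kb of the 3′ end. INSR held 1 with butyrate and 1 in control in equal numbers of top peaks. INSR ranked 584 with butyrate and 507 in control among the 3292 genes over 100 kb by density, behind IGF1R in both.

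**Figure D5:**
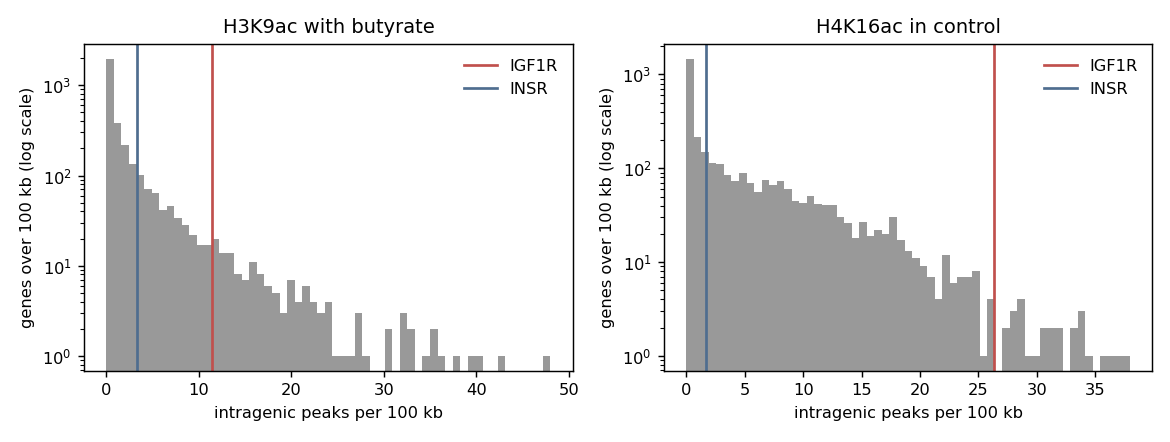
Number of protein-coding genes over 100 kb (log scale) by intragenic peaks per 100 kb, for H3K9ac with butyrate (left panel) and H4K16ac in control (right panel); the lines mark IGF1R (red) and INSR (blue). IGF1R stands at 11.4 and INSR at 3.29 H3K9ac peaks per 100 kb with butyrate, and at 26.3 and 1.65 H4K16ac peaks per 100 kb in control.

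IRS1 (chr2:226731312-226799820, minus strand) held 3 intragenic H3K9ac peaks with butyrate and 1 in control, all within 8069 bp of the start. The strongest was in both libraries at the same place (chr2:226791751-226792499 with butyrate), with 9.18 fragments per 10 M reads with butyrate and 11.1 in control. The 2 gained peaks had folds of 2.47 and 3.28, and in equal numbers of top peaks IRS1 held 1 with butyrate and 1 in control. IRS2 (chr13:109752695-109786583, minus strand) held 4 with butyrate and 1 in control (2 with butyrate and 1 in control in equal numbers of top peaks). Promoter and intragenic H3K9ac peaks together covered 25.1% of IRS2 with butyrate and 13.5% in control. Of its 3 gained peaks, the one 20.6 kb past the start (chr13:109765709-109765993) had a fold of 4.76, the highest of all 47.

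Among the binding proteins, IGFBP4 (chr17:40443450-40457725, plus strand) held 2 intragenic H3K9ac peaks with butyrate and 0 in control (1 with butyrate and 0 in control in equal numbers of top peaks). The first (chr17:40447992-40448872), in intron 1, had 7.14 fragments per 10 M reads and a fold of 4.1. Promoter and intragenic H3K9ac peaks together covered 25.8% of IGFBP4 with butyrate and 10.4% in control, where all of it was promoter peaks. In the flanks of IGFBP4 lay 3 butyrate peaks and 1 control peak. IGFBP3 (chr7:45912245-45921272, minus strand) held 1 with butyrate and 1 in control (0 with butyrate and 1 in control in equal numbers of top peaks). Promoter and intragenic peaks together covered 34.3% of IGFBP3 with butyrate and 25.8% in control. The butyrate promoter peak of IGFBP3 covered that control peak in both settings.

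IGFBP5, a binding protein also held in the extracellular matrix, and IGFBP2 lie tail to tail on chromosome 2 with 7669 bp between their ends. IGFBP5 (chr2:216672105-216695549, minus strand) held 3 intragenic H3K9ac peaks with butyrate and 0 in control, with none at its start in either. The strongest (chr2:216681936-216682559, intron 1) had a fold of 4.09 and 5.44 fragments per 10 M reads. It held 0 with butyrate and 0 in control in equal numbers of top peaks. IGFBP2 (chr2:216632828-216664436, plus strand) had no peak of either mark inside the gene in any library. The single butyrate H3K9ac peak between the 2 genes (chr2:216665772-216666150, fold 2.78) is in the flank of both.

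H4K16ac took another pattern at the same genes. No promoter of the 8 had an H4K16ac peak with butyrate or in control, against 5.16% of all genes with butyrate and 20.0% in control, so 0 of 8 gained one (2.73% of all genes) and 0 of 8 lost one (17.6%). Over all genes, 2.43% had one in both libraries and 87.8% of those marked in control were unmarked with butyrate, a share that cannot be read at these 8. Inside the genes there were 36 peaks with butyrate, in 4 genes (33.2% of all genes had one), and 90 in control, in 4 genes (43.7%): 20 were gained, in 4 genes (31.3% of all genes had at least 1), and 74 were lost, in 4 genes (43.0%). More intragenic peaks with butyrate were seen at IGFBP4 (1 of 8, against 10.9% of all genes), and fewer at IGF1R, INSR and IRS2 (3 of 8, against 35.6%).

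IGF1R held 31 H4K16ac peaks with butyrate and 83 in control, and 16 of the 31 overlapped a control peak. It ranked 17 of 19594 genes by number with butyrate and 6 in control, and by density 47 with butyrate and 28 in control among the genes over 100 kb. Peaks covered 3.41% of the gene with butyrate and 13.1% in control. Intron 2 held 19 with butyrate and 50 in control, and the stretch from 200 to 260 kb held 12 with butyrate and 27 in control. The median summit had 4.18 fragments per 10 M reads with butyrate and 5.75 in control, both of them 10 fragments, so single peaks are close to the limit of the lists. At a q of 0.05 or less, 0 of the 31 butyrate peaks and 44 of the 83 control peaks were left. In equal numbers of top peaks there were 31 with butyrate and 47 in control.

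The strongest control H4K16ac peak of IGF1R (chr15:98900418-98901653, intron 5) had a fold of 5.23 and 8.62 fragments per 10 M reads, and a butyrate peak of fold 3.89 and 6.28 fragments per 10 M reads overlapped it. The local background at IGF1R was 1.52 times the genome background with butyrate and 1.5 times in control for H4K16ac, against medians of 1.16 with butyrate and 1.38 in control over the lists, and its part in the number of peaks was not tested. In the flank past the 3′ end, 2 control peaks and 0 butyrate peaks stood in PGPEP1L, the neighbouring gene.

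The other genes had few H4K16ac peaks. INSR held 1 with butyrate and 3 in control, IRS1 held 1 with butyrate and 1 in control at different places, and IRS2 held 0 with butyrate and 3 in control. IGFBP4 held 3 with butyrate and 0 in control, and the strongest of the 3 reached a −log10 q of 0.994, short of a q of 0.05. IGFBP2, IGFBP3 and IGFBP5 had none. Without IGF1R, the other 7 genes held 5 intragenic H4K16ac peaks with butyrate and 7 in control, none of them shared. In equal numbers of top peaks these 7 genes held 5 with butyrate and 2 in control, the opposite order.

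Some gained H3K9ac peaks of IGF1R fell on sites that held H4K16ac in control. Of its 31 gained H3K9ac peaks, 11 overlapped a control H4K16ac peak (35.5%, exact 95% binomial interval 19.2 to 54.6) and 4 a butyrate one (12.9%, 3.63 to 29.8). Over the whole list, 10.9% of 61089 gained H3K9ac peaks overlapped a control H4K16ac peak and 5.19% a butyrate one. Control H4K16ac peaks cover 13.1% of IGF1R. In the stretch from 200 to 260 kb, which held 20 of the 31 gained H3K9ac peaks, they cover 24.6%. The gained peaks of IGF1R had a median width of 538 bp, against 404 bp over the list. The part of coverage and width in the overlap was not tested, so the shares do not show a preference for these sites. At the other 7 genes the share was 1 of 16 (6.25%, 0.158 to 30.2), the one in IRS1. The peaks of a gene share its chromatin and are not independent, so these intervals are too narrow.

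The other genes of the pathway were read in a list of 65. At the promoters, 53 kept an H3K9ac peak, 6 gained one with butyrate (9.23%, near the 9.28% of all genes), 0 lost one and 6 had none in either. With equal numbers of top peaks, 2 gained and 2 lost one, and at a fold of at least 5, 7 gained and 2 lost one. Gained promoters included those of INSRR, the insulin receptor-related receptor (−log10 of the authors' q, 6.62), and of the ligands IGF2 (2.34) and INS (2.06). H4K16ac promoter peaks were kept at 2 (IGFBP1 and SOS1, named after their values were seen), gained at 2 and lost at 13 of the 65 (20%, against 17.6% of all genes). The gained ones, SH2B2 and INSRR, had a −log10 q of 0.384 and 0.361, short of a q of 0.05. Among the lost ones, the control peak had a −log10 q of 5.75 at IGF2BP1, an RNA-binding protein named for IGF2 mRNA, 3.79 at the kinase AKT2, and 2.18 at INPPL1 and at TSC1, which restrain the pathway.

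Inside the genes, the 65 held 240 H3K9ac peaks with butyrate and 32 in control: 46 had more with butyrate (44.7% of all genes), 17 had the same number, and 2 had fewer, FOXO1 (0 with butyrate, 2 in control) and SOCS3 (0 with butyrate, 1 in control), named after their values were seen. The median difference was 2 peaks, against 0 over all genes. Over all genes the density was 3.06 intragenic peaks per 100 kb with butyrate and 0.438 in control. A promoter peak was kept at 81.5% of the 65, against 55.9% of all genes, and its part in these counts was not tested. The intragenic counts of the list were not recomputed in equal numbers of top peaks for either mark. RPTOR, the scaffold of mTOR complex 1, had the largest difference with 40 peaks with butyrate and 6 in control. IGF2BP3 had 17 with butyrate and 1 in control, SLC2A1, the glucose transporter GLUT1, also 17 with butyrate and 1 in control, and IGF2BP1 16 with butyrate and 2 in control.

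For H4K16ac the 65 genes held 121 intragenic peaks with butyrate and 404 in control: 29 had fewer with butyrate (35.6% of all genes), 32 the same number and 4 more (SHC1, MAP2K1, INSRR and STC2, named after their values were seen). Over all genes the H4K16ac density was 1.42 intragenic peaks per 100 kb with butyrate and 4.05 in control. RPTOR again led, with 37 peaks with butyrate and 93 in control. PIK3CB, a catalytic subunit of phosphoinositide 3-kinase, had 4 with butyrate and 36 in control, IDE, the insulin-degrading enzyme, 4 with butyrate and 25 in control, MTOR 1 with butyrate and 22 in control, and SOS1 1 with butyrate and 21 in control. In RPTOR, as in IGF1R, the body held more H3K9ac and fewer H4K16ac peaks with butyrate. The densities over all genes differed in the same directions, and the share of all genes with both was not computed.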

How the data were processed

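KGN chromatin from butyrate and control cells was profiled for H3K9ac, H4K16ac and IgG, and the peak lists of 6 of 8 samples were analysed. CASAVA 1.7, MACS2 2.1.0 and the build hg19 (GRCh37) are named in the submitters' processing notes; the aligner and duplicate filter were not given in the sources used here. Per the file headers, each row is a MACS2 peak with Ensembl annotation. The deposited fold is the authors' ratio of summit pileup to local background, and the p and q columns are the authors' −log10 values. The deposited score is 10 times −log10 q (H3K9ac, IgG) or 10 times −log10 p (H4K16ac). Gene starts in the files lay a median of 41 bp from RefSeq starts of GRCh38.p14, so positions are read as GRCh38. Peak names in the H4K16ac lists carry k12; H4K16ac means the libraries so labelled.

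Rows sharing bases were merged, chromosomes 1 to 22 and X kept, and starts printed counting from 1. Of 19974 protein-coding genes, 380 without a strand but with peaks were left out; 768 without a strand had no peak and count as having none. Overlap meant at least 1 bp. Fragments at a summit and the local background were solved from fold and p; 100% of summits came out whole within 0.001 in −log10 p. Depth is the background floor over a genome of 2.7 Gb. Scripts were tested on simulated data (Python 3.11.15, pandas 2.3.3, numpy 2.4.6, scipy 1.17.1). All intervals cover counting error only. The largest p was 0.00108 with butyrate and 0.000348 in control for H3K9ac, and 0.00499 with butyrate and 0.005 in control for H4K16ac, whose largest q was 0.621 with butyrate and 0.304 in control.

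The members and lists were chosen with earlier results of these data known. All 8 genes are named, with their promoter peaks and up to 3 strongest intragenic peaks per library; from the pathway list, the 5 strongest gained or lost promoters and the 5 largest intragenic differences per mark. Some genes that this rule takes are left out of the text. Alternatives were a 2.5 kb promoter window, a q of 0.05, a fold of 5, equal numbers of top peaks, RefSeq starts alone, an overlap of 50% of the shorter peak and summits counted singly; the p limit of the control H3K9ac list and the set without IGF1R (in all peaks and in equal numbers of top peaks) were added after seeing the data.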

Additional observations from a re-analysis of the deposited data

How the results depend on the processing

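Each list is 1 library, called at its own depth and limit, so peak numbers depend on where the limit stands, and a missing peak is not a measured absence. Of 152 recomputed values, 105 stayed within 1.5 times of the reported one and 47 did not; the cause was not tested. With RefSeq starts alone, an overlap of 50% of the shorter peak, or the control list's p limit for H3K9ac, none moved. Of the 8 genes, 6 had an H3K9ac promoter peak with butyrate and 6 in control under each promoter alternative run, except at a fold of at least 5, where control had 5. No paired analysis was possible because each mark and condition has 1 library.

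A 2.5 kb window gave 1301 genes with a gained H4K16ac promoter peak, 7 of them in the pathway list. At a q of 0.05 or less, H4K16ac promoter peaks were gained at 5 and lost at 2195 of all genes and gained at 0 pathway genes; the 8 genes then held 0 intragenic H4K16ac peaks with butyrate (0 gained) and 46 in control (46 lost). At a fold of at least 5, 1278 genes lost an H3K9ac promoter peak, 0 gained and 60 lost an H4K16ac one; of the 8 genes, 1 (IRS1) gained an H3K9ac promoter peak. Intragenic peaks were then 4 with butyrate and 4 in control for H3K9ac (2 gained, 2 lost), so the excess with butyrate was gone, and 0 with butyrate and 1 in control for H4K16ac (0 gained, 1 lost). In the pathway list 2 genes lost H3K9ac, 0 gained H4K16ac and 2 lost it. With equal numbers of top peaks, 637 genes gained and 520 lost an H3K9ac promoter peak and 2119 lost an H4K16ac one; the 8 genes held 13 intragenic H3K9ac peaks with butyrate (5 gained) and 49 H4K16ac peaks in control (41 lost), and 2 pathway genes gained and 2 lost H3K9ac. Counting each summit gave 97 intragenic H3K9ac summits with butyrate (76 gained) and 20 in control. Without IGF1R there were 19 H3K9ac peaks with butyrate (16 gained) and 4 in control, and 5 H4K16ac peaks with butyrate (5 gained) and 7 in control (7 lost); with equal numbers of top peaks as well, H3K9ac had 5 with butyrate and 4 in control, and H4K16ac 5 with butyrate and 2 in control.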
